A study of Homo sapiens with 3 samples.

Results

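A map of the RNA contacts of TIA1 was read at 10 human genes whose messenger RNAs serve growth and stress responses, several of them known for AU-rich 3′ untranslated regions (3′ UTRs). The genes were MYC, JUN, ATF4, MCL1, CCND1, HIF1A, VEGFA, ODC1, CDKN1B and BTG1. A cluster, meaning an interval where sequenced RNA fragments pile up, belonged to a gene when at least 1 nt of it lay within the hg19 bounds of the gene on the gene's strand. By that rule the 10 genes held 72 of the 103134 clusters of replicate 1, 50 of the 66222 clusters of replicate 2 and 3 of the 2253 peaks that the authors listed as reproducible. No cluster and no peak of the 3 lists lay on the opposite strand of these genes.

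The method was eCLIP, in which ultraviolet light fixes a protein to the RNA it touches before immunoprecipitation and sequencing. HEK293T cells, a widely used transformed line of human embryonic kidney origin expressing SV40 large T antigen, were irradiated with 600 mJ, and about 20000000 cells went into a replicate. The immunoprecipitated group comprised 2 replicates made with anti-TIA1, and the input group was 1 library from the same line and crosslinking without antibody. No stress, drug or mutant was part of the design. The labels are at odds on some points: the treatment text assigns the antibody's catalogue number to Msi1, HEK293 is written in the growth text, and the replicates are named biological in one field and technical in another, so the spread between them may be technical. The library totals recovered from the deposited values were 2683407 reads in replicate 1, 1997817 in replicate 2 and 2851338 in the input.

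TIA1 carries RNA recognition motifs that prefer U-rich RNA. It is known as a splicing regulator at U-rich sequence behind 5′ splice sites, as a repressor of translation at AU-rich elements in 3′ UTRs, and as a component of stress granules. AU-rich elements, often built from the pentamer AUUUA, shorten the life or limit the translation of messengers for growth factors, cytokines and proto-oncogenes.

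Few clusters on these genes were strongly enriched. As in the lists as a whole, nearly all exceeded the input (95.8% of those in replicate 1 and 94.0% of those in replicate 2), against 94.3% and 96.0% of all clusters. A cluster was called enriched when the authors' log2 fold over input and their −log10 p-value were both at least 3. In replicate 1, 3 of 72 clusters were enriched (4.17%, exact 95% binomial interval 0.868 to 11.7), against 3.09% of all clusters in that list. In replicate 2, 4 of 50 were enriched (8.0%, 2.22 to 19.2), against 5.32% of all. Both shares lay near the share over all clusters, which both intervals include. The intervals cover counting error only and take clusters as independent, although 10 of the 72 and 8 of the 50 lie on MCL1. The 7 enriched clusters lay on 4 genes, MCL1, BTG1, MYC and VEGFA, and only MCL1 had one in both replicates. The 3 reproducible peaks lay on MCL1 (2 peaks) and BTG1 (1 peak). The other 8 genes had none. Of these peaks, the one nearest to the 3′ end of its gene was centred at 60.8% of the gene length.

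**Figure D1:**
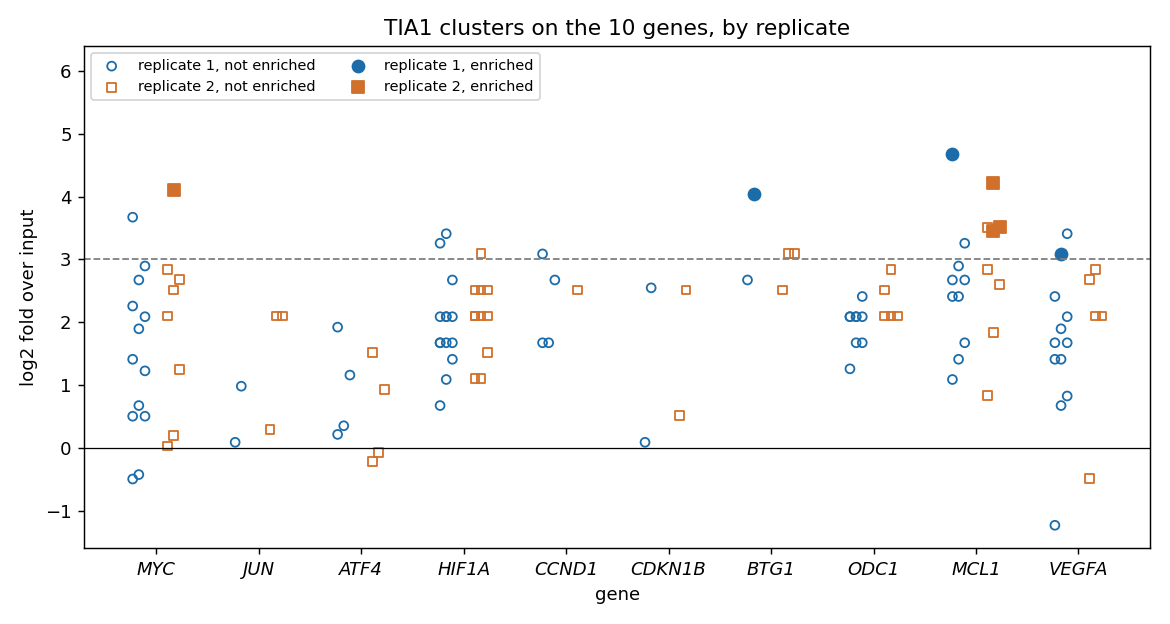
Log2 fold over input (vertical axis) of each cluster on the 10 genes (horizontal axis), with circles for replicate 1 and squares for replicate 2. Filled symbols are enriched clusters and the dashed line marks a log2 fold of 3. The 7 filled symbols sit on MYC, BTG1, MCL1 and VEGFA, and every JUN, ATF4, CDKN1B and ODC1 cluster lies below the dashed line.

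The AU-rich label was checked against the 3′ UTRs themselves. The longest annotated 3′ UTR of each gene was taken from the coding transcripts of GENCODE 29, and the sense strand was searched for the pentamer ATTTA, which is AUUUA in RNA, with overlapping matches counted. A run of 5 T, written TTTTT, was counted in the same way. MYC had the highest AU content, 72.7%, with 4 ATTTA in 476 nt. HIF1A followed with 69.1% and 8 ATTTA in 1319 nt, then CDKN1B with 66.6% and 7 in 1344 nt, and BTG1 with 65.5% and 5 in 3802 nt. MCL1 had 61.2% and 10 ATTTA in 2824 nt. These 5 genes and ATF4, 6 of 10, lay above the median AU content of 19098 genes, 57.1%.

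The other 4 lay below that median, and the pentamer was missing from 2 genes. ATF4 (60.2% AU in a 3′ UTR of only 83 nt) and ODC1 (53.2% in 756 nt) held no ATTTA, although 67.4% of all genes hold at least 1. CCND1 had 53.8% AU with 7 ATTTA in 3192 nt, VEGFA 57.0% with 10 in 1925 nt, and JUN, just under the median, 57.1% with 3 in 1287 nt. Per kb, ATTTA ran from 0 in ATF4 and ODC1 to 8.40 in MYC, against a median of 1.48 over all genes. BTG1, with a reproducible peak, lay just under that median at 1.32, and MCL1 above it at 3.54. TTTTT was most frequent in MYC (37.8 per kb) and HIF1A (22.0), at 8.94 in BTG1 and 3.90 in MCL1, with a median of 4.40 over all genes.

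**Figure D2:**
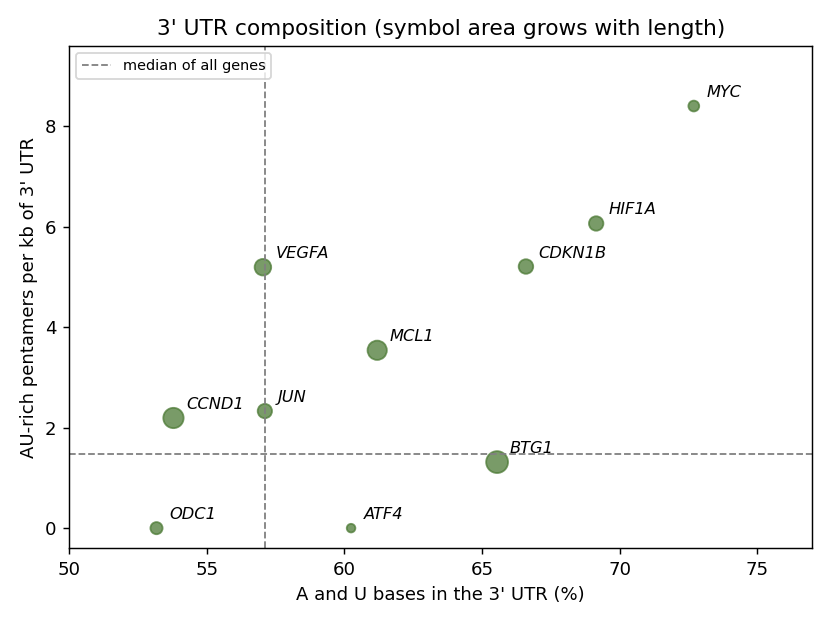
Share of A and U bases in the 3′ UTR (horizontal axis, %) against the number of ATTTA pentamers per kb (vertical axis) for the 10 genes, with symbol area growing with 3′ UTR length and dashed lines at the medians of 19098 genes. MYC lies at the top right (72.7% and 8.40 per kb), and ATF4 and ODC1 lie on the floor at 0.

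The 30 nt stretch with the most ATTTA, and among equals the most A and T, shows how unlike these 3′ UTRs are. It is printed below for both genes with a reproducible peak, for HIF1A and VEGFA, which have a pair of overlapping pentamers, and for ODC1, which has none. Capitals mark ATTTA.
MCL1: taATTTAactggtgaaATTTAaagtgaatt
BTG1: tttgaaattatttccttttttccaaATTTA
HIF1A: ttttaaaaaatgcacctttttATTTATTTA
VEGFA: ttaattttaatatttgttatcATTTATTTA
ODC1: tttttaaaataaagtatcttgaaataatta
The stretches begin at base 1133 of the 3′ UTR in MCL1, 2619 in BTG1, 398 in HIF1A, 1711 in VEGFA and 310 in ODC1. Of all 30 nt windows in the 3′ UTRs of GENCODE 29, 5.49% hold an ATTTA and 9.15% a TTTTT. The transcripts are annotated on GRCh38 and the clusters on hg19. The letters under the clusters were therefore not read, and none of these stretches is shown to be bound.

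MCL1, which encodes a short-lived anti-apoptotic protein of the BCL2 family, held both the most enriched clusters (4 of the 7) and the highest fold among the 10 genes. The 7 are counted over both lists, so the MCL1 site enriched in both replicates enters once per list. Its strongest site was a reproducible peak of 46 nt on chromosome 1 from 150549037 to 150549082, minus strand, 3133 nt from the 5′ end of a gene of 5188 nt. At these bounds the log2 fold was 4.67 in replicate 1 on 24 reads and 4.21 in replicate 2 on 13 reads, over an input number of 1. The mean was 4.44 ± 0.32 (SD, n = 2), and both replicates lay above 4. It ranked 706 of 2253 reproducible peaks by fold, whose median was 4.15.

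The second MCL1 peak was closer to the 5′ end. It spanned 70 nt from 150551237 to 150551306, nt 909 to 978 of the gene, with a log2 fold of 2.89 in replicate 1 on 21 reads and 3.45 in replicate 2 on 23 reads over an input number of 3. Its mean was 3.17 ± 0.39 (SD, n = 2), so it just passed the limit of 3 that all listed peaks meet, and only replicate 2 lay above it. By rank it was 2156 of 2253.

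Replicate 2 alone had another enriched MCL1 site from 150548835 to 150548894, at a log2 fold of 3.51 on 16 reads over 2. The overlapping cluster of replicate 1 had 2.67 on 12 reads over 2, at a −log10 p of 2.22, so this site did not pass in both. A site near the 3′ end, from 150547202 to 150547258 in replicate 1, had a log2 fold of 2.41 at a −log10 p of 3.15, and its partner in replicate 2 had 2.60 at 3.60. In both replicates it passed the limit on p and missed the one on fold. In all, MCL1 had 10 clusters covering 443 nt in replicate 1 and 8 covering 350 nt in replicate 2, none of them below the input.

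The positions can be set beside the length of the 3′ UTR. A coding MCL1 transcript in GENCODE 29 has the same genomic span as the hg19 gene, 5188 nt, and a 3′ UTR of 2824 nt within its last exon. The stronger peak ended 2010 nt before the gene's 3′ end, within that length, while the other ended 4210 nt before it, outside. Only lengths were compared, since exons of the files' build were not used here.

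BTG1, an antiproliferative protein that binds the deadenylase complex, held the remaining reproducible peak. It spanned 47 nt on chromosome 12 from 92537756 to 92537802, minus strand, at nt 1872 to 1918 of a 5620 nt gene. The log2 fold was 4.04 in replicate 1 on 31 reads and 3.21 in replicate 2 on 13 reads, over an input number of 2. The mean was 3.63 ± 0.59 (SD, n = 2), a wider gap between replicates than at either MCL1 peak. In the list of replicate 2 the site appears with a shorter cluster, from 92537765 to 92537802, at 3.10 on 12 reads and a −log10 p of 2.85, just under the limit. BTG1 therefore counted as enriched in replicate 1 alone.

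This peak ended 3702 nt before the 3′ end. A BTG1 transcript of the same span, 5620 nt, has a 3′ UTR of 3802 nt in its last exon, so by length the peak fell near the beginning of the 3′ UTR. A second BTG1 site, from 92536309 to 92536358 in replicate 1, was found in both replicates at 2.67 and 3.10 on 6 reads each over an input number of 1. Neither value passed the limit on p. BTG1 had only 2 clusters in replicate 1 and 3 in replicate 2, and all of them lay at a log2 fold of at least 2.51.

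MYC, the transcription factor that drives growth and ribosome production, came closest to joining them. Its strongest cluster in replicate 2 lay on chromosome 8 from 128753445 to 128753481, plus strand, with a log2 fold of 4.10 on 12 reads over an input number of 1 (95% counting interval 1.34 to 9.52, −log10 p 3.72). The overlapping cluster of replicate 1, from 128753452 to 128753487, also had 12 reads over 1, at 3.67 (0.92 to 9.09). In the deeper library of replicate 1 those reads gave a −log10 p of 2.86, just below the limit. Both replicates were thus high at this site and 1 of them passed.

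The MYC site sat at the end of the gene. In replicate 2 it ended 199 nt before the 3′ end, less than the 476 nt of the annotated 3′ UTR. The transcript with that 3′ UTR spans 5351 nt in GENCODE 29, while the gene spans 5366 nt, as another coding transcript does. Of the 13 MYC clusters of replicate 1, 4 lay within 476 nt of the 3′ end, as did 3 of the 8 of replicate 2. Farther from the 3′ end no MYC cluster exceeded 2.89, and 2 clusters of replicate 1 lay below the input. Over the whole gene the folds ran from -0.50 to 3.67 in replicate 1 and from 0.03 to 4.10 in replicate 2.

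**Figure D3:**
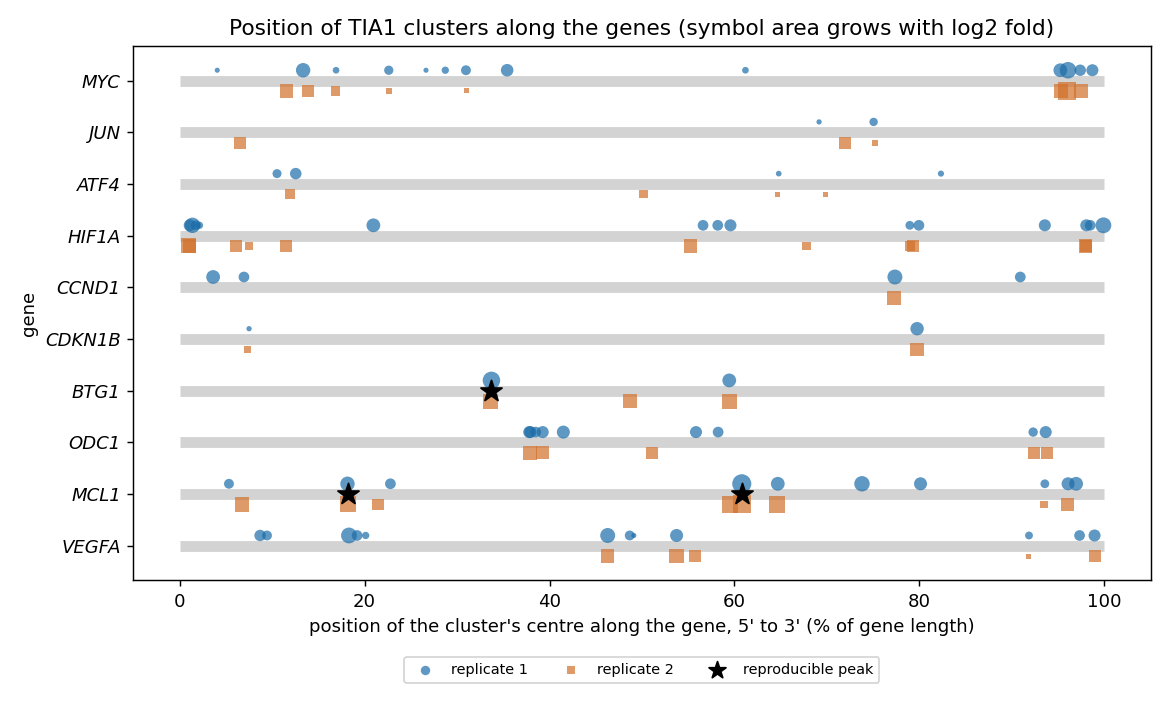
Centre of each cluster along its gene from 5′ to 3′ (horizontal axis, % of gene length) for the 10 genes (vertical axis), with circles above the bar for replicate 1, squares below it for replicate 2, area growing with log2 fold, and stars for the 3 reproducible peaks. The stars lie at 18.2% and 60.8% of MCL1 and at 33.7% of BTG1, and the largest MYC symbols lie at the 3′ end.

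JUN, the AP-1 subunit and a classic immediate early gene, had no enriched cluster and few clusters at all. It had 2 clusters in replicate 1, at log2 folds of 0.98 and 0.09, and 3 in replicate 2, at 2.10, 2.10 and 0.29. Each cluster of replicate 2 at 2.10 held only 3 reads. The site shared by both replicates had 0.98 and 0.29, so it lay close to the input in each.

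ATF4, the transcription factor of the integrated stress response whose translation is governed by upstream open reading frames, held the deepest site at a modest fold. Its largest cluster in replicate 1 lay on chromosome 22 from 39916806 to 39916863, plus strand, and held 82 reads, the most at any cluster of the 10 genes, over 23 in the input. The log2 fold was 1.92 (95% counting interval 1.24 to 2.66) at a −log10 p of 8.64. In replicate 2 the overlapping cluster, from 39916779 to 39916863, held 52 reads over 26, a log2 fold of 1.51 (0.81 to 2.25) at a −log10 p of 5.08. In both replicates the site passed the limit on p and missed the one on fold. The site lay at nt 211 to 295 of a 2123 nt gene by the bounds of replicate 2, toward the 5′ end. The other ATF4 clusters ran from -0.22 to 1.16.

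HIF1A, the oxygen-regulated subunit of hypoxia-inducible factor, is the longest of the genes at 52859 nt and had the most clusters in both lists, 14 in replicate 1 and 11 in replicate 2. None was enriched. The highest, 3.41 on 10 reads over an input number of 1, lay on chromosome 14 from 62214907 to 62214949, 28 nt before the 3′ end, in replicate 1, at a −log10 p of 2.29. No cluster of replicate 2 overlapped it. The highest of replicate 2, 3.10 on 6 reads, lay from 62162579 to 62162619 near the 5′ end and had no partner in replicate 1. Only 3 HIF1A clusters of each replicate overlapped one of the other.

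Among the cell cycle genes, CCND1 encodes cyclin D1, which drives entry into the cycle. It had 4 clusters in replicate 1 and 1 in replicate 2. The site found in both lay on chromosome 11 from 69466198 to 69466231 in replicate 1, at 3.09 on 8 reads over an input number of 1, and from 69466193 to 69466218 in replicate 2, at 2.51 on 4 reads. With so few reads the −log10 p was 1.74 and 0.78.

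CDKN1B, an inhibitor of cyclin-dependent kinases, had 2 clusters in each replicate, and each overlapped a cluster of the other list. The stronger site, on chromosome 12 from 12874263 to 12874321 in replicate 1, had 2.55 on 11 reads and 2.51 on 8 reads, over 2 in the input. Its folds were nearly equal in both replicates, with −log10 p of 1.97 and 1.70. The other site lay near the input at 0.09 and 0.51.

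ODC1, the rate-limiting enzyme of polyamine synthesis, had 9 clusters in replicate 1 and 5 in replicate 2, none enriched. The folds ran from 1.26 to 2.41 in replicate 1 and from 2.10 to 2.84 in replicate 2. No ODC1 cluster held more than 9 reads, and 8 of the 9 and 4 of the 5 rested on an input number of 1.

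VEGFA, the main angiogenic growth factor, had 1 enriched cluster, on chromosome 6 from 43745455 to 43745506, plus strand, at nt 7510 of a 16278 nt gene. In replicate 1 its log2 fold was 3.09 on 16 reads over 2 at a −log10 p of 3.27, just inside both limits. The cluster of replicate 2 began at the same base and had 2.68 on 9 reads over 2, at a −log10 p of 1.98. This site ended 8717 nt before the 3′ end, farther than the annotated 3′ UTR is long, 1925 nt. The highest VEGFA fold was elsewhere, 3.41 on 10 reads over an input number of 1 from 43740889 to 43740962 in replicate 1, at a −log10 p of 2.29 and with no overlapping cluster in replicate 2. In replicate 2 the highest was 2.84 on 5 reads. VEGFA also had the lowest fold among the 10 genes, -1.23 in replicate 1, in a total of 12 clusters there and 5 in replicate 2.

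Several sites passed the limit on fold and missed the one on p. In replicate 1, 9 of the 72 clusters had a log2 fold of at least 3 (12.5%, against 6.95% of all clusters), of which 6 missed the limit on p. In replicate 2 there were 8 of 50 (16.0%, against 13.1%), of which 4 missed it. The median cluster on these genes, where reads could be recovered, had 6 reads in replicate 1 and 5 in replicate 2, against 4 over each whole list. A laxer log2 fold of 1 with the same limit on p was also used. It called 6 clusters in replicate 1 (8.33%, against 4.14% of all clusters) and 6 in replicate 2 (12.0%, against 6.36%). ATF4 then joined MCL1 as a gene called in both replicates.

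Replicates were compared at overlapping clusters, whose folds share the 1 input library. Of the clusters on the 10 genes, 33 of 72 in replicate 1 (45.8%, exact 95% interval 34.0 to 58.0) and 31 of 50 in replicate 2 (62.0%, 47.2 to 75.3) overlapped one of the other list. Over all clusters these shares were 28.9% and 45.0%. The clusters of these genes also held more reads, as given above, and the part of depth in that difference was not tested. The median absolute difference between overlapping clusters was 0.43 on the log2 scale, the same as over all such clusters. The largest was 1.38. Any pair with equal reads over equal input differs by 0.43 through the library totals alone. Both medians fell on this step, so their equality does not measure how closely the replicates matched. A difference under 1 was found in 30 of the 33 pairs that start from replicate 1.

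**Figure D4:**
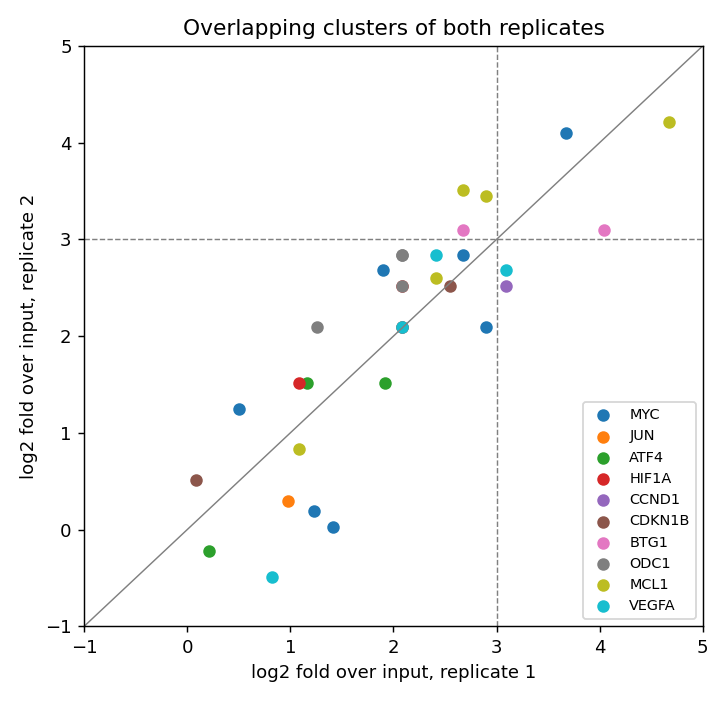
Log2 fold over input in replicate 1 (horizontal axis) and replicate 2 (vertical axis) at overlapping clusters, coloured by gene, with the line of equal values and dashed lines at 3. Of the 33 pairs, some coincide. MCL1, MYC and BTG1 have a pair above 3 in both replicates, and VEGFA and ATF4 reach below 0 in replicate 2.

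A value that uses more than the highest cluster is the log2 ratio of all recovered reads in a gene's clusters to the input reads there, scaled by the library totals. Over the 10 genes it was 1.88 in replicate 1, from 594 reads over 172 across clusters covering 2668 nt, and 2.03 in replicate 2, from 340 over 119 across 1780 nt. Over all clusters it was 1.80 and 2.01. By this ratio the 10 genes lay close to the list as a whole. The median log2 fold per cluster was 1.89 and 2.10 on these genes, and 1.67 and 2.10 over all. A cluster of 3 reads over 1, the commonest kind, has a fold of 1.67 in replicate 1 and 2.10 in replicate 2. Both medians over all clusters, and that of the genes in replicate 2, fell on this step. The equal medians at 2.10 therefore say little about likeness to the list.

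By the highest cluster of each gene, averaged over the replicates, MCL1 came first at a log2 fold of 4.44 ± 0.32, MYC next at 3.89 ± 0.30 and BTG1 at 3.57 ± 0.67 (SD, n = 2 each). HIF1A (3.25 ± 0.22) and VEGFA (3.12 ± 0.41) followed, then CCND1 (2.80 ± 0.41), ODC1 (2.62 ± 0.30) and CDKN1B (2.53 ± 0.02). ATF4 (1.72 ± 0.29) and JUN (1.54 ± 0.79) came last. Replicate ranges of neighbours overlapped in this order except between MCL1 and MYC and between CDKN1B and ATF4. A highest value is drawn from more clusters in genes with more clusters, and HIF1A had 14 in replicate 1 where JUN had 2.

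BTG1 stood first by the ratio of summed reads, at 3.71 in replicate 1 and 2.97 in replicate 2, a mean of 3.34 ± 0.52 (SD, n = 2). MCL1 followed at 2.54 ± 0.16 and CCND1 at 2.46 ± 0.07. VEGFA (2.16 ± 0.50), CDKN1B (2.10 ± 0.63), ODC1 (2.06 ± 0.33) and HIF1A (2.03 ± 0.0037) could not be ordered, since the replicate ranges of neighbours from MCL1 down to HIF1A overlapped. MYC came next at 1.68 ± 0.08, then ATF4 at 1.43 ± 0.05 and JUN at 0.95 ± 0.04. The values of JUN and CDKN1B in replicate 1 rest on 1 recovered cluster each. That of CCND1 in replicate 2 rests on 1 cluster of 4 reads over 1, with a counting interval of -0.82 to 8.14, so its small SD does not make its place firm. With the clusters of unrecovered reads added, a setting chosen after seeing the data, CDKN1B came to 1.61, VEGFA to 1.47, MYC to 1.47, ATF4 to 1.28 and JUN to 0.85. With at least 10 reads required of a cluster, 4 genes kept a value in both replicates. BTG1 came to 3.57, MYC to 2.90, MCL1 to 2.55 and ATF4 to 1.49, so MYC then stood above MCL1. That minimum selects on the reads that form the top of the ratio.

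The replicate ranges of 4 neighbouring pairs did not overlap: BTG1 with MCL1, HIF1A with MYC, MYC with ATF4, and ATF4 with JUN. Within each replicate, however, the counting intervals of all 9 neighbouring pairs overlapped. No interval was formed for a difference between neighbours, so whether any step exceeded counting error was not tested.

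**Figure D5:**
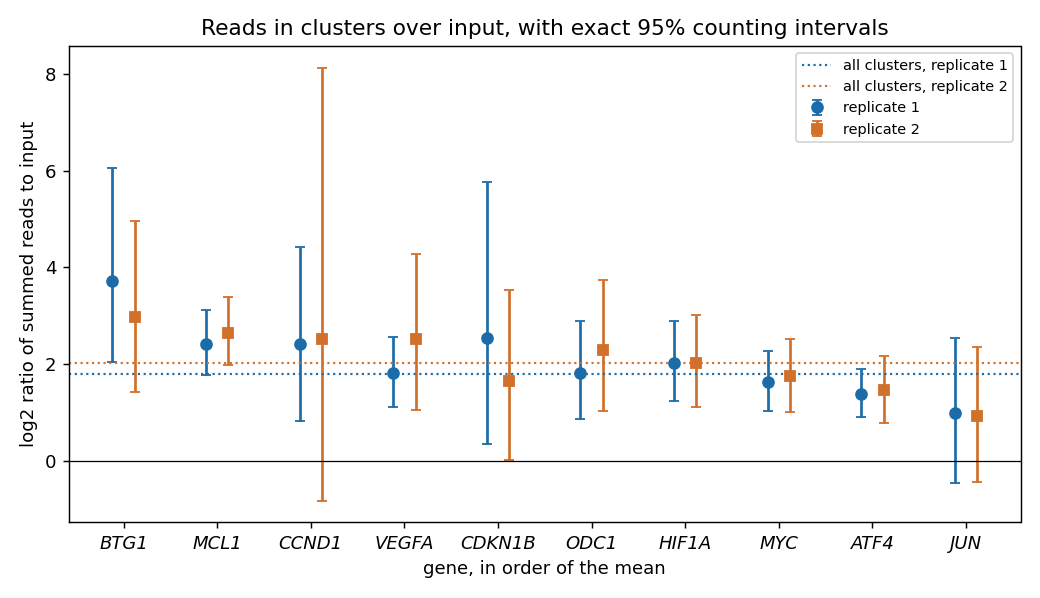
Log2 ratio of summed reads to summed input (vertical axis) for each gene (horizontal axis, in order of the mean), with circles for replicate 1, squares for replicate 2, bars for exact 95% counting intervals, and dotted lines for the same ratio over all clusters. BTG1 is highest at 3.71 and 2.97 and JUN lowest at 0.98 and 0.93, and the intervals of neighbours overlap.

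JUN reached 0.98 in replicate 1 (95% counting interval -0.45 to 2.55) and 0.93 in replicate 2 (-0.44 to 2.35). Its summed reads could be told neither from the input nor from the ratios over all clusters, 1.80 and 2.01. MCL1 reached 2.42 (1.78 to 3.12) and 2.65 (1.97 to 3.39), and both intervals include the ratios over all clusters. The interval of BTG1 lay above that ratio in replicate 1 (2.05 to 6.05) and included it in replicate 2 (1.41 to 4.97). Clusters were called on the immunoprecipitated reads, so a ratio above the input is shared by the lists as a whole. Whether a gene with few clusters had little RNA or little TIA1 on it cannot be told apart from these lists.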

How the data were processed

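The submitters' processing notes name STAR 2.4.0i, SAMtools 1.4.1, and both cutadapt 1.9.1 and cutadapt 1.14, and the build hg19, without saying what each step did. Which program called clusters is not given in the sources used here. Clusters were called per replicate by the authors, who also deposited a reproducible list over both. The deposited −log10 p-value (ceiling 400) compares an interval's reads with the input. The deposited log2 value is the library-scaled ratio of reads to input. Both units were read from the values. Each fold and p is the authors' own for that cluster and was used within its list. The input enters only through them.

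Library totals and reads were recovered from the discrete steps of the fold and from the p-value (Fisher's exact test, or chi-square with Yates' correction where no observed or expected number was under 5). The relative tolerance was 2e-05, or 1e-05 absolute. Each list's commonest fold was taken as 3 reads over 1. Reads were recovered for 67 of 72 clusters in replicate 1 and 47 of 50 in replicate 2. The rest lay below the input or close to it. An input number of 1 may stand for 0. A reproducible peak carries the bounds of a cluster of 1 replicate, whose fold was read there. The fold of the other was solved from the mean. The recovery was tested on simulated data. The simulation used the same p-value formula and made 3 reads over 1 the commonest value, so it did not test those assumptions. Intervals are exact (95%) and cover counting error only. Python 3.11.15, SciPy 1.17.1 and pandas 2.3.3 were used.

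The genes, bounds and limits were chosen with earlier results of these data known, so no p-value was computed over them, and shares are given with counting intervals as a description. The 3′ UTR measures were chosen after values were seen. All 10 genes are named, each with its reproducible peaks or its strongest cluster. A further list of genes and the exons of hg19 were not used here, since the reference given is on GRCh38. Alternatives covered limits, overlap, strand, gene bounds, reads and left-out replicates.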

Additional observations from a re-analysis of the deposited data

How the results depend on the processing

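Counts on these genes are small, so 1 cluster moves them. Of 37 settings of the main results, 22 kept a count within 1.5 times or a value within the spread between replicates. At a log2 fold of at least 1, enriched clusters in replicate 1 rose to 6 and genes called in both replicates to 2. The enriched share of the 122 clusters of these genes, pooled over both lists with shared sites counted in each, rose from 5.74% to 9.84%. Over all clusters the share also rose, from 3.09% to 4.14% in replicate 1 and from 5.32% to 6.36% in replicate 2. At a log2 fold of 4 and a −log10 p of 5 that share was 1.64%, and replicate 2, the reproducible peaks and the genes called in both came to 0. Another setting kept the limit on fold and asked for the authors' p, adjusted by Benjamini-Hochberg over each list, to be under 0.05. It called 3 genes in both replicates, MCL1, BTG1 and MYC, and 8.20% of the 122 clusters. No share over all clusters was counted at this setting or at the stricter one. The counts there cannot be set beside the whole lists. On the opposite strand every count was 0, so no share could be formed. Without replicate 1, 2 genes had an enriched cluster, and without replicate 2, 3 had one. These count genes in a single list and could not fall below the 1 gene enriched in both. With clusters of unrecovered reads added at their smallest whole reads, a setting chosen after seeing the data, the median log2 ratio over the genes went from 2.08 to 1.82, as the added clusters lie near or below the input. Requiring whole clusters inside the gene, or adding 1000 nt beyond the 3′ end, changed no count. A minimum of 10 reads left 4 of 10 genes with a value in both replicates, so no median was formed. Of 58 settings of single genes, 52 kept their value within the spread and none turned its sign. No paired analysis was possible because only the immunoprecipitated group has replicate numbers and the input is 1 library.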
